A study of Mus musculus with 6 samples.

Results

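The genes described are 50 genes of the cell cycle and DNA replication, set apart as 18 replication genes and 32 mitotic genes. They were listed by name from their known roles, with earlier results of these data known. They were measured in white adipose tissue of 3 KSR2-/- mice and 3 WT mice, 1 Affymetrix array per mouse, and the question was how the genotypes differ. Of the 50, 49 were measured by a probe set that names a single gene, among 18193 genes in all, and Ccnb1, a cyclin of mitotic entry, was not. The KSR2-/- mice lack KSR2, a scaffold of the Raf-MEK-ERK kinase cascade, and both genotypes were labelled C57Bl6, female and 6 months old. Neither the fat depot nor the deleted part of the gene is named in the labels. All values are log2 intensities, computed from the intensities the authors deposited. Counts set beside the shares of all genes describe the list and do not test it, because of how the list was chosen.

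A cell that divides first copies its DNA and then separates the copies. Before replication, ORC, CDC6 and CDT1 load the MCM helicase onto origins, and E2F factors and cyclin E with CDK2 drive the genes and kinases of this step. Cyclin A and cyclin B with CDK1 then take the cell into mitosis, where the spindle, its checkpoint and the anaphase-promoting complex part the chromosomes. Mature adipocytes do not normally divide, and dividing cells of adult fat are mostly stromal, vascular and immune cells, among them macrophages that proliferate in obese fat. In RNA of whole tissue, more dividing cells and more RNA per dividing cell cannot be told apart.

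By the numbers in their titles, mice 1 and 2 of each genotype belong to a higher-numbered series of animals and mouse 3 of each to a lower-numbered one. The 4 arrays of the higher-numbered series went against the label female. On them Eif2s3y, a gene of the Y chromosome, read 7.89 to 9.02 and Xist, the RNA of the inactive X, read 4.35 to 5.06. In KSR2-/- 3 and WT 3 Eif2s3y read 2.65 and 2.09, and Xist read 9.86 and 10.10. Kdm5d and Uty, also Y-linked, split the arrays the same way. Each series holds both genotypes, so the counts over the 49 genes are given over all 6 mice and within each series, and single genes within a series where stated. Series and this split cannot be told apart. Adipoq, which encodes the adipocyte hormone adiponectin, read 12.70 to 13.58 on all 6 arrays. The control probe sets at the 3' and 5' ends of Gapdh differ with RNA quality, and their 3' minus 5' difference was 0.47, 1.46 and 0.81 in KSR2-/- mice and 0.07, 0.69 and 4.18 in WT mice. The Ksr2 probe set read 4.26 to 4.47 in KSR2-/- mice and 4.04 to 4.74 in WT mice and does not check the genotype.

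Cell cycle genes read higher in KSR2-/- fat, by much in mice 1 and 2 and by little in mouse 3. Of the 49 measured genes 46 had a higher mean in KSR2-/- mice, where 44.4% of all genes did, and their median difference was 1.17 log2 against −0.04 for all genes. With all probe sets of a gene averaged it was 0.76. The mean over the 49 genes was 6.45, 6.75 and 5.36 in KSR2-/- mice 1 to 3 and 5.04, 5.13 and 5.21 in WT mice 1 to 3. All 3 KSR2-/- means lay above the WT means, that of mouse 3 by 0.14 above the highest of them. KSR2-/- 2 was the highest of the 6 arrays for 34 of the genes, KSR2-/- 1 for 13 and a WT array for 2, and KSR2-/- 3 was the lowest KSR2-/- array for 44. It still exceeded all 3 WT values for 25 of the genes, where it did so for 23.2% of all genes.

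No single cell cycle gene passed limma over the 6 mice after Benjamini-Hochberg adjustment over all genes, at adjusted p from 0.210 to 0.957. In all, 0.0055% of genes passed. At an unadjusted p under 0.05, 30 of the 49 were higher and 0 lower, where 6.71% of all genes were higher and 5.38% lower. Every KSR2-/- value exceeded every WT value in 25 of the 49, where this held for 7.72% of all genes, and the reverse held for 1, Foxm1, where 8.56% of all genes did so. KSR2-/- 1 exceeded all WT values in 45 genes and KSR2-/- 2 in 46, so the count of 25 equals that of KSR2-/- 3. Over all 18193 genes KSR2-/- 1 did so in 4104 and KSR2-/- 2 in 4990. The count at an unadjusted p under 0.05 depended on single arrays. Without KSR2-/- 1, KSR2-/- 2 or WT 2 the count of 30 fell to 17, 16 and 19. Without KSR2-/- 3, 33 of the 49 rose by limma at an adjusted p under 0.05, where 3.16% of all genes did.

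**Figure D1:**
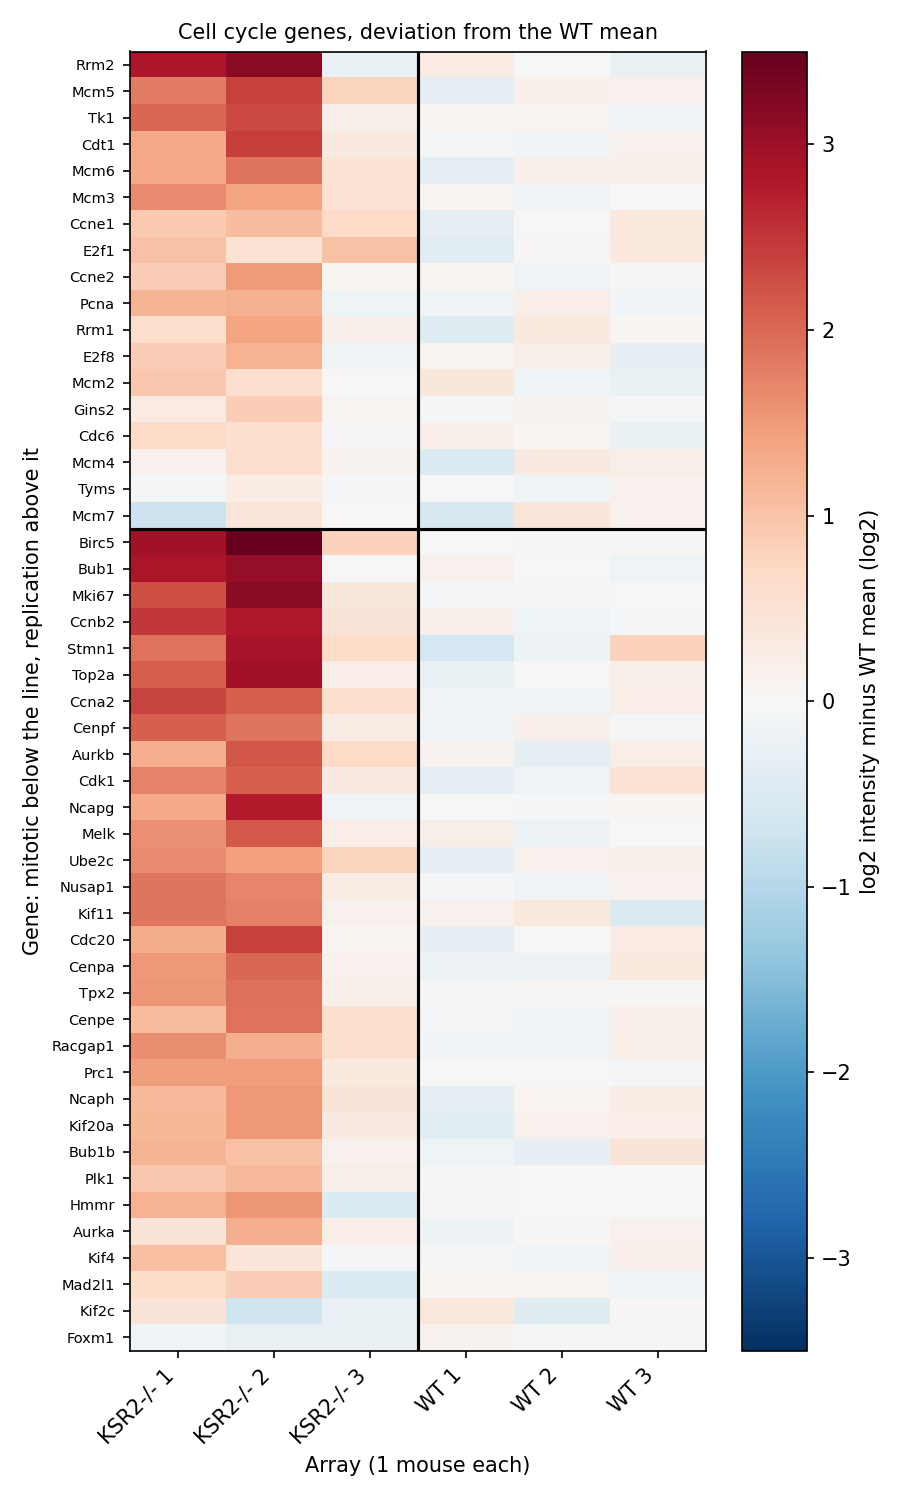
Deviation of each of the 49 measured genes (rows) from its WT mean on each of the 6 arrays (columns), in log2, with replication genes above the line and mitotic genes below it. KSR2-/- 1 and 2 are raised over most rows, by up to 3.29 for the 2-mouse mean of Birc5 over that of WT 1 and 2, and KSR2-/- 3 lies close to the WT arrays.

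Within the higher-numbered series, 22 of the 49 genes rose in KSR2-/- mice by limma at an adjusted p under 0.05, where 2.03% of all genes did, and none fell. Here 2 mice stood against 2. The median difference was 1.55, and 46 genes were higher. Between KSR2-/- 3 and WT 3 the median difference was 0.16, and 34 of the 49 were higher, where 40.4% of all genes were. That pair has no replicate and no test. The difference between the 2 effects, tested as an interaction of genotype and series over all genes, passed limma for 0 genes (lowest adjusted p among the 49 was 0.283). At an unadjusted p under 0.05 the effect was smaller in the lower-numbered pair for 29 of the 49 and larger for 0, where it was smaller for 4.05% of all genes. The pair also differs from the other arrays in other tissue markers. The mean of the mesothelial list was 8.72 in KSR2-/- 3 and 7.74 in WT 3 against 6.74 to 7.12 elsewhere, and that of the skeletal muscle list was 5.88 and 7.07 against 4.78 to 5.31. The mammary epithelium list read 5.37 and 6.36 against 4.35 to 4.79. With the Gapdh difference as a covariate the median difference of the 49 genes was 1.17. With the series as a block it was also 1.17, which the balance of genotypes over the series fixes in advance. In either fit 0 of the 49 passed limma after adjustment. Beyond these fits, the part of these markers, of RNA quality and of the sex-linked split in the result was not tested.

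**Figure D2:**
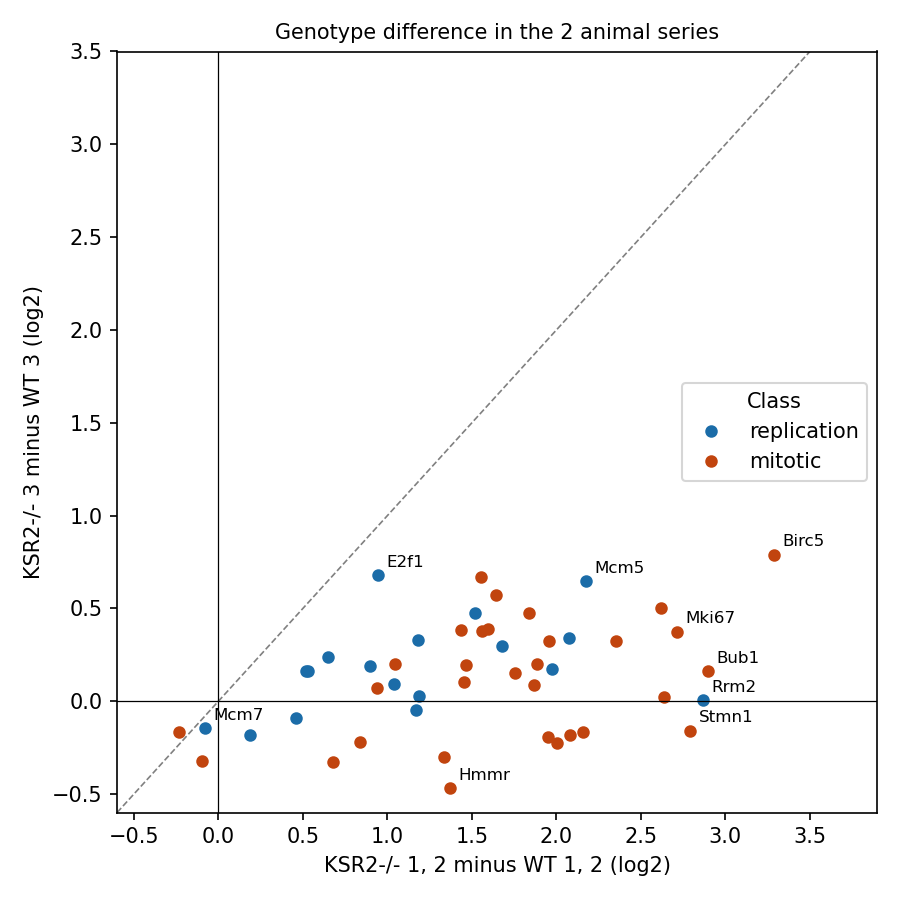
Difference of each gene between KSR2-/- 1, 2 and WT 1, 2 (horizontal axis, log2) against that between KSR2-/- 3 and WT 3 (vertical axis, log2). Each point is a gene and the dashed line marks equal differences. Nearly all points lie below the line, with vertical values from −0.47 for Hmmr to 0.79 for Birc5 and horizontal values up to 3.29.

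Among the replication genes, 17 of 18 had a higher mean in KSR2-/- mice, with a median difference of 0.78, or 0.50 without KSR2-/- 2. At an unadjusted p under 0.05, 7 were higher and 0 lower, where 6.71% of all genes were higher and 5.38% lower. The 7 were Mcm5, Ccne1, Mcm3, E2f1, Mcm6, Tk1 and Cdt1. In the same 7 every KSR2-/- value exceeded every WT value, where 7.72% of all genes did so. In the higher-numbered series 4 rose by limma after adjustment, namely Mcm3, Mcm5, Rrm2 and Tk1, where 2.03% of all genes did.

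The MCM2 to MCM7 proteins form the ring that unwinds DNA at the fork, and their genes did not move alike. Mcm5 read 7.77, 8.36 and 6.75 in KSR2-/- mice 1 to 3 and 5.65, 6.13 and 6.10 in WT mice 1 to 3. KSR2-/- 3 lay above all WT mice here too, and the difference was 1.67 (SE 0.40, limma adjusted p = 0.240), or 3.17-fold. Mcm6 read 8.47, 9.01 and 7.61 against 6.80, 7.32 and 7.31 in WT mice, a difference of 1.22 (SE 0.36). Mcm3 read 7.82, 7.55 and 6.66 against 6.25, 6.08 and 6.19 in WT mice, a difference of 1.17 (SE 0.30). For these 3 subunits no KSR2-/- value fell within the WT range. On the probe set used, Mcm2 read 8.01, 7.67 and 7.09 in KSR2-/- mice and 7.46, 6.92 and 6.86 in WT mice, which overlap (difference 0.51, SE 0.28). The other, dimmer probe set of Mcm2 read 6.56, 6.33 and 5.96 against 5.44, 5.22 and 4.92 in WT mice. There the genotypes did not overlap, and the difference was 1.09. Mcm7 read 8.13, 9.26 and 8.85 in KSR2-/- mice and 8.29, 9.26 and 8.99 in WT mice. Its difference was −0.10 with a 95% interval of −0.95 to 0.74, and its 3 other probe sets gave −0.12 to 0.08. Mcm4 differed by 0.28 (interval −0.35 to 0.90).

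The promoters of Mcm5, Mcm6 and Mcm7 are shown because these subunits of the same ring differed most and least. Each is the 250 bases before the gene's start in RefSeq, build GRCm38.p6, and for Mcm7 the upstream one of 2 windows. Capitals mark E2F letters (TTTCCCGC, TTTGGCGC, TTTCGCGC or TTTGCCGC), CHR letters (TTTGAA or TTTAAA) and CCAAT, on either strand. TTTAAA reads alike on both strands, neighbouring E2F matches can overlap, and no motif contains another kind.
Mcm5 (chr8:75109259-75109508, plus strand): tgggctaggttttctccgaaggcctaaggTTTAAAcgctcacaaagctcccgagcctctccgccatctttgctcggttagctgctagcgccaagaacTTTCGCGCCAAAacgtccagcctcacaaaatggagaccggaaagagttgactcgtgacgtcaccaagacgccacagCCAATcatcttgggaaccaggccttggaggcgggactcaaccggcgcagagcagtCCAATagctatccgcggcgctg
Mcm6 (chr1:128359706-128359955, minus strand): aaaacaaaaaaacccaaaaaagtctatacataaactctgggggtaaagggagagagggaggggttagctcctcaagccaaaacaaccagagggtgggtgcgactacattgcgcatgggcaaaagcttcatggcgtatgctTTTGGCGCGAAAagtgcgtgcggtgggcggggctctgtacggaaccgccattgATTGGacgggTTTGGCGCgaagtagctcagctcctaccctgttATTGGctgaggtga
Mcm7 (chr5:138171884-138172133, minus strand): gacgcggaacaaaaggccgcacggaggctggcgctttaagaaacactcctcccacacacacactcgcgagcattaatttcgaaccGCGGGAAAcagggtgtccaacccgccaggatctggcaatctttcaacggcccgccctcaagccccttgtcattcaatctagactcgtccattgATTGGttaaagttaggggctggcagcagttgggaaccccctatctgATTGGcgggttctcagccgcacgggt
Mcm5 held 2 E2F matches, which overlap, and Mcm6 held 3. Mcm7, with the lowest difference, held 1 in the window shown and 0 in its other window. The windows of Mcm2 and Mcm3 held 0, although Mcm3 differed by 1.17. Windows were found for 15 of the 18 replication genes, 16 windows in all. E2F letters were in 4 of them, or 25%, against 1.86% of 32851 promoter windows of all genes. These matches describe letters and show no bound factor.

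Of the loading and initiation factors and the clamp, all were higher on average. Cdt1, which brings the helicase to origins, differed by 1.37 (SE 0.48), and the values of the genotypes did not overlap. Cdc6, its partner in loading, differed by 0.40 (interval −0.17 to 0.97) and Gins2, a part of the active helicase, by 0.41 (interval −0.12 to 0.94). Pcna, the sliding clamp that holds polymerases on DNA, read 11.61, 11.67 and 10.29 in KSR2-/- mice and 10.28, 10.67 and 10.33 in WT mice. KSR2-/- 1 and 2 lay about 1 log2 above every WT mouse and KSR2-/- 3 within the WT range (difference 0.76, SE 0.38).

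Of the genes that supply nucleotides, Rrm2 showed the widest split among KSR2-/- mice. Rrm2, the regulated subunit of ribonucleotide reductase, read 7.70, 8.03 and 4.62 in KSR2-/- mice and 5.15, 4.84 and 4.62 in WT mice. KSR2-/- 3 equalled WT 3, so the groups overlap although the means differ by 1.91 (SE 0.83). Within the higher-numbered series Rrm2 rose 7.30-fold (2.87 log2, SE 0.25, limma adjusted p = 0.0148), and within the pair it differed by 0.004. Tk1, thymidine kinase, rose by 2.07 in the higher-numbered series (SE 0.23, limma adjusted p = 0.0201) and differed by 0.34 within the pair. Rrm1, the large subunit of the reductase, differed by 0.72 over all mice (SE 0.34). Tyms, thymidylate synthase, read 2.98 to 3.41 on all arrays, with a mean in the lowest 15.3% of genes, and differed by 0.06 (interval −0.34 to 0.47).

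Of the cyclin E and E2F genes, Ccne1 and E2f1 were well above the WT mean in KSR2-/- 3 too on the probe set used. Ccne1, which encodes cyclin E1, read 6.67, 6.83 and 6.42 in KSR2-/- mice and 5.40, 5.74 and 6.10 in WT mice (difference 0.89, SE 0.22, limma adjusted p = 0.248). E2f1, a transcription factor of replication genes, read 6.69, 6.16 and 6.68 in KSR2-/- mice and 5.25, 5.70 and 6.00 in WT mice (difference 0.86, SE 0.25). KSR2-/- 3 matched KSR2-/- 1 for E2f1, and stood 1.03 above the WT mean for E2f1 and 0.68 for Ccne1, where the median over all 49 genes for that mouse was 0.22. The interaction with series was −0.27 for E2f1 (SE 0.51, limma adjusted p = 1.00). Ccne2 read 4.52 and E2f8, an E2F that represses, read 3.55 in KSR2-/- 3, both within 0.1 of the WT mean. Of the other probe sets, 1 for Ccne1 gave 0.40 and 2 for E2f1 gave −0.04 and 0.40. On that of Ccne1, KSR2-/- 3 read 5.86, above the WT values of 5.19, 5.10 and 5.69. On those of E2f1, KSR2-/- 3 read 5.39 against 4.94, 4.76 and 5.43 in WT mice, and 3.88 against 4.17, 3.99 and 3.70. KSR2-/- 3 thus lay within the WT range on both other probe sets of E2f1.

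Among the mitotic genes 29 of 31 had a higher mean in KSR2-/- mice, with a median difference of 1.26, or 0.80 when all probe sets of a gene were averaged. At an unadjusted p under 0.05, 23 were higher and 0 lower, where 6.71% of all genes were higher and 5.38% lower. Every KSR2-/- value exceeded every WT value in 18, where 7.72% of all genes did so. Aurka was among these 18 but not among the 23. In the higher-numbered series 18 rose by limma after adjustment, where 2.03% of all genes did. The KSR2-/- 3 value exceeded all WT values in 18, where 23.2% of all genes did so. It lay below all of them in 4, where 4004 of all 18193 genes did so.

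The cyclin A and B genes and the gene of their kinase were higher by more than 1 log2. Ccna2, cyclin A2 of S phase and mitotic entry, read 7.39, 7.11 and 5.56 in KSR2-/- mice and 4.89, 4.91 and 5.24 in WT mice (difference 1.67, SE 0.46). Ccnb2, a mitotic cyclin B, read 6.73, 7.04 and 4.70 against 4.42, 4.11 and 4.20 in WT mice (difference 1.91, SE 0.57). Neither overlapped between genotypes, and in the higher-numbered series both rose, 5.10-fold and 6.14-fold (limma adjusted p = 0.0160 and 0.0158). Cdk1, the kinase these cyclins activate, read 7.49, 7.86 and 6.08 in KSR2-/- mice and 5.43, 5.61 and 6.25 in WT mice. It rose 4.46-fold in the higher-numbered series (limma adjusted p = 0.0208) and was 0.17 lower in KSR2-/- 3 than in WT 3. Foxm1, a transcription factor of mitotic genes, read 5.00, 4.88 and 4.91 in KSR2-/- mice and 5.27, 5.08 and 5.08 in WT mice. It was lower in every KSR2-/- mouse, by 0.21 on average (interval −0.56 to 0.14), and its 3 other probe sets gave −0.13 to 0.22. Melk, a kinase of dividing cells, rose by 1.89 in the higher-numbered series (SE 0.29, limma adjusted p = 0.0425).

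The genes of the spindle checkpoint and the anaphase-promoting complex were led by Ube2c, the ubiquitin-conjugating enzyme of that complex. Ube2c had the smallest p of the 49 genes and read 7.02, 6.81 and 6.15 in KSR2-/- mice and 5.03, 5.51 and 5.58 in WT mice. The lowest KSR2-/- value was 0.57 above the highest WT value, and the difference was 1.29 (SE 0.27, limma adjusted p = 0.210). Bub1, a checkpoint kinase, rose 7.46-fold in the higher-numbered series (limma adjusted p = 0.0131), the smallest adjusted p of the 49 there. It read 5.68 and 5.90 in KSR2-/- 1 and 2, and 2.84 in KSR2-/- 3, which lay within the WT range of 2.68 to 2.96. These WT values are near the 2.65 and 2.09 of Y-linked Eif2s3y in the lower-numbered pair, so the fold rests on a dim baseline. The other probe set of Bub1 read 2.33 to 2.63 on all arrays and differed by −0.00076. Cdc20, an activator of the complex, differed by 1.26 (SE 0.54), Bub1b by 0.79 (SE 0.33) and Mad2l1, a checkpoint protein gene, by 0.34 (interval −0.48 to 1.16).

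In all 4 genes of the Aurora and Polo kinases and survivin every KSR2-/- value exceeded every WT value. This held for 7.72% of all genes. Birc5, which encodes survivin of the chromosomal passenger complex, had the largest difference of the 49 genes. It read 6.78, 7.46 and 4.67 in KSR2-/- mice and 3.86, 3.81 and 3.88 in WT mice, a difference of 2.46 (SE 0.65, limma adjusted p = 0.248), or 5.49-fold. The WT values spanned 0.07 and KSR2-/- 3 stood 0.82 above their mean. Aurkb, the kinase of the same complex, read 4.58, 5.49 and 4.01 against 3.44, 2.95 and 3.53 in WT mice (difference 1.38, SE 0.38). Plk1 and Aurka differed by 0.76 (SE 0.25) and 0.65 (SE 0.29).

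Of the kinesin, spindle and cytokinesis genes 9 of 10 were higher. In the higher-numbered series 6 rose by limma after adjustment, where 2.03% of all genes did. Racgap1, a GTPase-activating protein of the cleavage furrow, read 6.37, 6.00 and 5.33 in KSR2-/- mice and 4.64, 4.61 and 4.95 in WT mice (difference 1.17, SE 0.28, limma adjusted p = 0.240). Prc1, which bundles microtubules of the central spindle, read 6.24, 6.25 and 5.13 against 4.81, 4.82 and 4.75 in WT mice (difference 1.08, SE 0.31). For both genes every KSR2-/- mouse lay above every WT mouse. Stmn1, which destabilizes microtubules, rose 6.92-fold in the higher-numbered series (limma adjusted p = 0.0331) and was 0.16 lower in KSR2-/- 3 than in WT 3. Kif11, Tpx2 and Nusap1, which act on the spindle, rose there by 1.55, 1.76 and 1.87. Kif2c differed by −0.17 (interval −0.96 to 0.61), while its 3 other probe sets gave −0.13, 0.28 and 1.18.

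The centromere, condensin and chromosome genes had the highest median of the mitotic groups with several members apart from the cyclin group, 1.33 against 1.38 there, and all 7 were higher. Mki67, which encodes the proliferation marker Ki-67, read 8.33, 9.23 and 6.47 in KSR2-/- mice and 6.01, 6.12 and 6.10 in WT mice (difference 1.94, SE 0.63). The WT mice lay within 0.11 of each other and KSR2-/- 3 was 0.40 above their mean. Top2a, the topoisomerase that untangles replicated DNA, read 7.27, 8.07 and 5.38 in KSR2-/- mice and 4.92, 5.16 and 5.36 in WT mice (difference 1.77, SE 0.62). KSR2-/- 3 exceeded WT 3 by 0.02. In the higher-numbered series Mki67 rose 6.57-fold and Top2a 6.22-fold (limma adjusted p = 0.0272 and 0.0263).

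The remaining members of this group were Cenpa, Cenpe, Cenpf, Ncaph and Ncapg. Cenpa, the centromeric histone gene, differed by 1.24 (SE 0.46), and the genotypes overlapped, with KSR2-/- 3 at 5.45 and WT 3 at 5.64. Its other probe sets gave 0.19 and −0.48. Cenpe, a kinesin of the centromere, read 5.14, 5.94 and 4.62 in KSR2-/- mice and 3.96, 3.93 and 4.23 in WT mice. Cenpf, another centromere protein gene, read 5.47, 5.25 and 3.63 against 3.26, 3.54 and 3.31 in WT mice. Ncaph, a condensin subunit gene, read 6.74, 7.14 and 6.06 against 5.27, 5.68 and 5.87 in WT mice. In these 3 genes the KSR2-/- 3 value was above every WT value, by 0.10 in Cenpf, 0.19 in Ncaph and 0.39 in Cenpe. Ncapg, a condensin subunit gene too, read 4.22, 5.64 and 2.76 in KSR2-/- mice and 2.80 to 2.94 in WT mice. KSR2-/- 3 was slightly below all WT mice. These readings are near the 2.65 and 2.09 of Y-linked Eif2s3y in the lower-numbered pair, so their order says little.

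Promoters of 5 mitotic genes that rose in the higher-numbered series are shown for the elements known from mitotic genes, the CCAAT box and the CHR. They are the same kind of window, build and capitals as for the MCM genes. All 5 windows shown hold both elements. The windows of Bub1, Bub1b, Melk, Nusap1 and Racgap1, which also rose in that series by limma after adjustment, held no CHR letters. Prc1, which rose too, held 0 CHR matches in a window and 1 in its other window.
Cdk1 (chr10:69352913-69353162, minus strand): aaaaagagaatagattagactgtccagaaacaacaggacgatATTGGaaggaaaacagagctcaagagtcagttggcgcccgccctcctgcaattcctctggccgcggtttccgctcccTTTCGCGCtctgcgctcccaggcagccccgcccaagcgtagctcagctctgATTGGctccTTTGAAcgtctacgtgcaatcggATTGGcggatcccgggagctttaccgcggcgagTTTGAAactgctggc
Ccnb2 (chr9:70421555-70421804, minus strand): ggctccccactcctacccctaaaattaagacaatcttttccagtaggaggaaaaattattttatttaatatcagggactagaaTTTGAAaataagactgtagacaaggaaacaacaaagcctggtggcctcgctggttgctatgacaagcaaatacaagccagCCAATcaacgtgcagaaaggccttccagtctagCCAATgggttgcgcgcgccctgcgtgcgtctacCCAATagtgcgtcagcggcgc
Ube2c (chr2:164769679-164769928, plus strand): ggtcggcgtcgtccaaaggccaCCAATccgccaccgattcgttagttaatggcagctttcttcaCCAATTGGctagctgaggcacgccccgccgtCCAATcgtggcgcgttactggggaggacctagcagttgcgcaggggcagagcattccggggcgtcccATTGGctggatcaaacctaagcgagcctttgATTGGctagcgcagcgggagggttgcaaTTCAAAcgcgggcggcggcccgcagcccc
Top2a (chr11:99024190-99024439, minus strand): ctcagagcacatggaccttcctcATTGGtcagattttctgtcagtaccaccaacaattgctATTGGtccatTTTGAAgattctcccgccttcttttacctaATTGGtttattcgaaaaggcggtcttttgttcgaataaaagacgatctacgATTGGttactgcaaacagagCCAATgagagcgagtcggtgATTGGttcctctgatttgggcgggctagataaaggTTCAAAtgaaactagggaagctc
Mki67 (chr7:135716380-135716629, minus strand): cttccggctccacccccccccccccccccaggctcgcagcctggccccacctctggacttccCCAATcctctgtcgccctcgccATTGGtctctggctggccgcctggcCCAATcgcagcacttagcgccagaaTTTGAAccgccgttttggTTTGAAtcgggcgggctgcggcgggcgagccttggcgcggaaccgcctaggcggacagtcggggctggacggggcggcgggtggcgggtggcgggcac
Windows were found for 25 of the 31 mitotic genes, 26 in all. CHR and CCAAT letters stood together in 12 of the 26, or 46.2%, against 18.8% of the 16 replication windows and 8.78% of all promoter windows. Taken singly, CHR letters were in 53.8% of mitotic, 31.2% of replication and 25.2% of all windows, and CCAAT in 76.9%, 62.5% and 33.8%. E2F letters were in 1 mitotic window, that of Cdk1. Birc5, with the largest difference, held 1 CHR and 0 CCAAT matches.

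**Figure D3:**
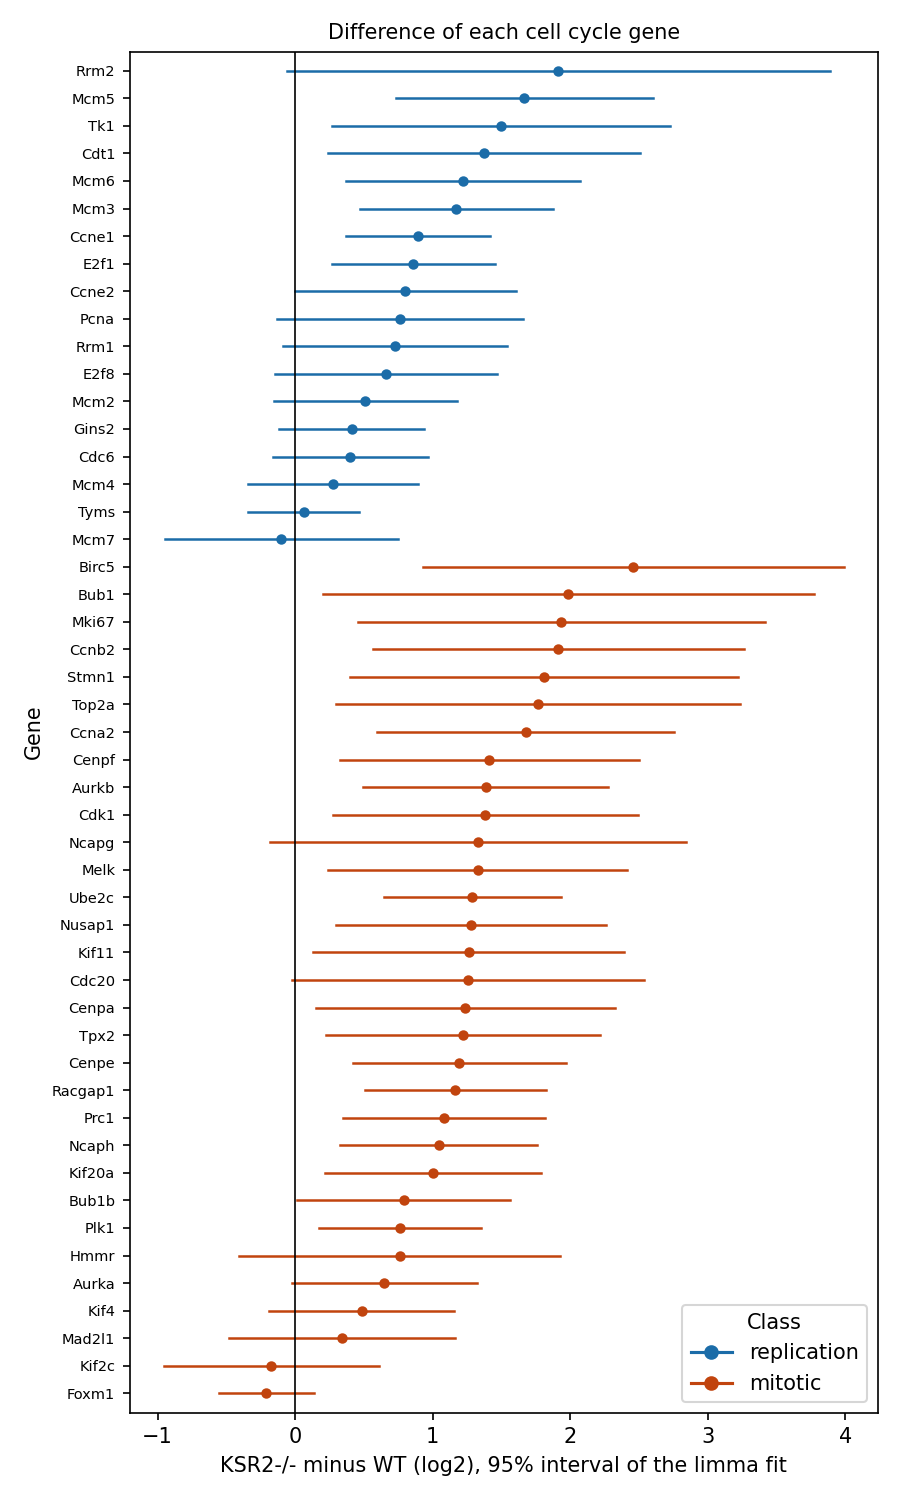
Difference of each gene between KSR2-/- and WT mice in log2 (points) with the 95% interval of the limma fit (lines), replication genes above and mitotic genes below. Differences run from −0.21 for Foxm1 to 2.46 for Birc5.

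Set against each other, the mitotic genes stood further from WT than the replication genes in KSR2-/- mice 1 and 2. The mean of the mitotic genes was 6.08, 6.36 and 4.80 in KSR2-/- mice and 4.49, 4.51 and 4.68 in WT mice. The mean of the replication genes was 7.08, 7.42 and 6.31 in KSR2-/- mice and 5.99, 6.18 and 6.13 in WT mice. Relative to the WT mean, mitotic genes were thus 1.52, 1.80 and 0.24 higher and replication genes 0.98, 1.32 and 0.21 higher in KSR2-/- mice 1 to 3. The replication mean minus the mitotic mean was 1.01, 1.06 and 1.51 in KSR2-/- mice and 1.50, 1.67 and 1.44 in WT mice. KSR2-/- 1 and 2 lay below all WT mice and KSR2-/- 3 within their range, for a difference of −0.35 over all mice and 0.069 within the lower-numbered pair. With all probe sets of a gene averaged, the class medians were 0.80 for mitotic and 0.70 for replication genes, against 1.26 and 0.78 with 1 probe set each. No test was made on these means because the genes were chosen with results known. Replication genes had a median mean level at the 58.8th percentile of all genes and mitotic genes at the 40.5th, so the classes also differ in how bright their probe sets were.

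Further genes of the same pathways were counted from lists by function, also chosen with earlier results of these data known. Of 39 measured other replication genes 27 were higher, with a median of 0.18. At an unadjusted p under 0.05, 7 were higher and 1 lower, where 6.71% of all genes were higher and 5.38% lower. Cdc7 and its activator Dbf4, the kinase that fires origins, differed by 1.21 (SE 0.30) and 1.47 (SE 0.41). The replication inhibitor gene Gmnn differed by 1.42 (SE 0.51) and the histone chaperone gene Asf1b by 0.93 (SE 0.24). Of 52 other mitotic genes 46 were higher, with a median of 0.76. Here 22 were higher and 0 lower at an unadjusted p under 0.05. Spc25, of the kinetochore, differed by 2.35 (SE 0.59) and the kinesin gene Kif22 by 1.50 (SE 0.35). Cks2, a partner of CDK1, differed by 1.17 (SE 0.30) and Fbxo5, an inhibitor of the anaphase-promoting complex, by 0.95 (SE 0.25). Limma passed 0 genes of either list after adjustment over the 6 mice and 2 and 17, all higher, in the higher-numbered series. In that series 2.03% of all genes rose. Within the lower-numbered pair the medians were −0.0013 for the other replication genes and 0.081 for the other mitotic genes.

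Of 20 G1 cyclins, CDKs and E2F and RB family genes, which control entry into the cycle, 16 were higher. Their median was 0.20, and 0.017 within the lower-numbered pair. At an unadjusted p under 0.05, 3 were higher and 0 lower, where 6.71% of all genes were higher and 5.38% lower. Cdk6, a kinase of cyclin D, read 8.90, 9.12 and 7.56 in KSR2-/- mice and 6.51, 6.46 and 7.19 in WT mice. It rose by 2.53 in the higher-numbered series (limma adjusted p = 0.0148) and differed by 0.37 within the pair. Ccnd1, cyclin D1, differed by 0.87 (SE 0.27) and Skp2, which marks CDK inhibitors for breakdown, by 0.87 (SE 0.33). Cdk2, the kinase of cyclin E, differed by 0.36 (SE 0.17).

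Among 14 CDK inhibitors and other brakes, 1 was higher and 2 lower at an unadjusted p under 0.05 (median 0.04). For the higher genes, 1 of 14 is near the 6.71% of all genes, and 5.38% of all genes were lower. Cdkn2c, which encodes the CDK4 and CDK6 inhibitor p18, read 9.83, 9.87 and 10.65 in KSR2-/- mice and 11.43, 11.54 and 11.10 in WT mice. All KSR2-/- values were below all WT values (difference −1.24, SE 0.26, limma adjusted p = 0.210), and it fell by 1.63 in the higher-numbered series (limma adjusted p = 0.0276). Cdkn1c, which encodes the inhibitor p57, differed by −0.86 (SE 0.26). Cdkn1a, which encodes p21, differed by 1.31 (SE 0.52) and was highest in KSR2-/- 3, at 10.36 against 8.81 and 9.43 in KSR2-/- 1 and 2. Fzr1, an activator of the anaphase-promoting complex, differed by 0.60 (SE 0.30).

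**Figure D4:**
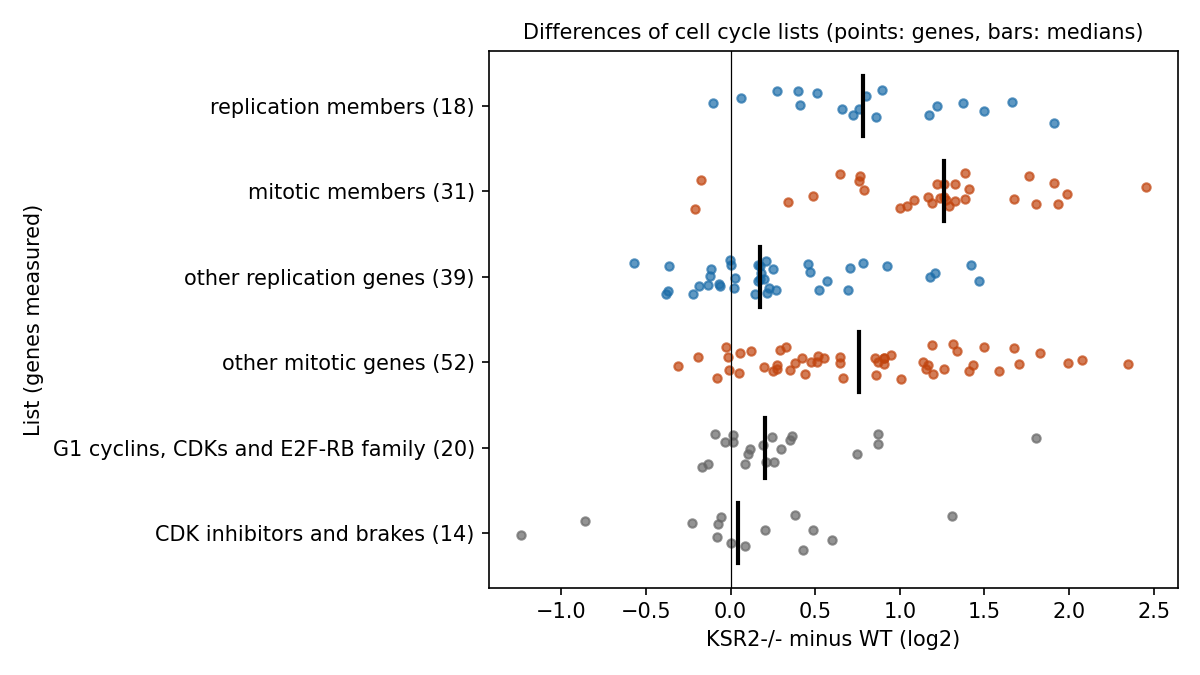
Differences between KSR2-/- and WT mice in log2 for each measured gene of 6 cell cycle lists (points) with the list medians (bars). Medians are 0.78 and 1.26 for the 18 replication and 31 mitotic genes, 0.18 and 0.76 for the other replication and mitotic genes, 0.20 for the G1 genes and 0.04 for the brakes.

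The means of macrophage markers were highest in KSR2-/- 1 and 2, as were those of the cell cycle genes. Of 12 macrophage markers 11 were higher, 7 of them at an unadjusted p under 0.05, where 6.71% of all genes were. Cd163 was lower, by 0.58. The mean of the 12 markers was 10.10, 10.08 and 9.15 in KSR2-/- mice and 8.69 to 8.87 in WT mice. The mean of 7 lipid-associated macrophage markers was 11.46, 11.36 and 9.84 in KSR2-/- mice and 9.05 to 9.16 in WT mice, with 5 at an unadjusted p under 0.05. Adgre1, which encodes F4/80, read 10.57, 10.71 and 8.75 in KSR2-/- mice and 8.16, 8.61 and 8.79 in WT mice. Within the lower-numbered pair Adgre1 differed by −0.04, but the markers did not move alike there. Of the 12 markers 8 were higher in that pair, where 40.4% of all genes were, from −0.66 for Cd163 to 2.43 for C1qa. All 7 lipid-associated markers were higher there, with a median of 0.34. T cell markers gave 0 of 6 genes at an unadjusted p under 0.05, endothelial markers 0 of 8, and adipose progenitor markers 0 higher and 1 lower of 7. Mast cell markers, at 7.12, 7.35 and 6.03 in KSR2-/- mice and 5.85, 6.21 and 6.87 in WT mice, were also highest in KSR2-/- 1 and 2. The same held for the mean of the monocyte and neutrophil list, at 6.88, 6.99 and 6.65 against 5.60 to 6.43 in WT mice. It also held for the plasma cell list, at 7.73, 8.01 and 7.21 against 7.12 to 7.52 in WT mice. The red cell precursor list, at 5.62, 5.66 and 5.57 against 5.05 to 5.53 in WT mice, was ordered likewise. The part of these cell types in the cell cycle result was not tested.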

How the data were processed

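Total RNA of white adipose tissue from 3 KSR2-/- and 3 WT mice was hybridized to 1 Affymetrix array each. The authors deposited intensity values on a linear scale (2.96 to 16422), made with RMA per the submitters' processing notes, with no version given. RMA summarises probes over all arrays and normalizes them to 1 distribution, so arrays are not independent at that step. Of 45101 probe sets, 34945 named 1 gene, 932 several and 9160 none, and 64 were controls. Symbols came from the platform annotation, updated through gene identifiers to RefSeq of GRCm38.p6. Where a gene had several such probe sets, the brightest on average was used, for 18193 genes. Log2 was taken with no pseudocount.

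The genotype difference was fitted in R 4.3.3 by limma 3.58.1, using lmFit and eBayes without trend, as a two-sided test adjusted over all genes by Benjamini-Hochberg at 0.05. Intervals and standard errors use limma's moderated variance, with a median standard error of 0.22 log2 over all genes. The number of arrays limits the precision. The fit was tested on simulated data. Replicates were numbered in accession order. The genes and lists were chosen with earlier results of these data known, and the Xist and Y-linked split, the interaction fit and the promoters shown were chosen after values were seen. Values on every array are given for Mki67, Top2a, Cdk1, Mcm2, Mcm5, Pcna, Rrm2, Ccne1 and E2f1 and for the 16 genes without overlap of smallest unadjusted p, and for a few others chosen after seeing them (Mcm7, Bub1, Foxm1, Ncapg, Cdk6, Cdkn2c, Adgre1, S100a8). Of the other cell cycle lists the 4 genes of smallest p are named. Alternatives were the mean of all probe sets, a filter on dim genes, renewed quantile normalization, median centring, eBayes with trend, the animal series as a block, the Gapdh difference as a covariate, and leaving out each array or series.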

Additional observations from a re-analysis of the deposited data

How the results depend on the processing

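No paired analysis was possible because the labels give no shared replicate numbers, and the animal number series was used as a block instead. With it 0 of the 49 genes passed limma after adjustment. That count was also 0 under every other alternative over all 6 mice, in the interaction fit and with any single array left out except KSR2-/- 3 (0 to 33 over the arrays left out), and it was 22 within the higher-numbered series. At an unadjusted p under 0.05 the count ran from 16 to 44 with 1 array left out. It was 12 with only genes at or above the median mean, which kept 19 of the 49. Among all genes the number past limma was 1 as analysed, 12 with that filter, 2 with quantile normalization repeated, 16 with arrays centred on their median, 10 with the trend, 0 with the series as a block, 6 with the Gapdh covariate, 487 within the higher-numbered series and 0 to 816 with 1 array left out. Within the lower-numbered pair the median differences were 0.16 for all 49, 0.17 for replication and 0.15 for mitotic genes, and the replication minus mitotic difference turned to 0.069. In that pair 12 genes turned sign, namely Mcm4 (−0.092), Pcna (−0.047), Tyms (−0.18), Cdk1 (−0.17), Cdc20 (−0.23), Bub1b (−0.30), Mad2l1 (−0.33), Kif4 (−0.22), Hmmr (−0.47), Stmn1 (−0.16), Cenpa (−0.19) and Ncapg (−0.18). With the mean of all probe sets Foxm1 turned to 0.0015 and Kif2c to 0.29. With 1 array left out, Mcm7 ran from −0.38 to 0.21 (positive without KSR2-/- 1 or WT 2), Tyms from −0.045 to 0.14 (negative without KSR2-/- 2 or WT 2) and Kif2c from −0.48 to 0.084 (positive without KSR2-/- 2 or WT 1). The median over the 49 genes ran from 0.84 to 1.50 with 1 array left out, that of replication genes from 0.50 to 1.02 and that of mitotic genes from 0.89 to 1.74. The cause was not tested. Of the 64 further probe sets of 35 genes, 19 had the opposite sign, 2 of them by over 0.5 log2, in Tpx2 and Kif2c.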

Other observations

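The other marker lists were counted in the same way, at an unadjusted p under 0.05 over the 6 mice, where 6.71% of all genes were higher and 5.38% lower. Of 5 monocyte and neutrophil markers 2 were higher, with S100a8, an alarmin of myeloid cells, at 10.28, 10.61 and 8.88 in KSR2-/- mice and 7.17 to 8.07 in WT mice. Plasma cell markers gave 2 of 5 higher, B cell markers 1 of 6, mast cell markers 1 of 6 and red cell precursor markers 2 of 5. The other 3 plasma cell markers had lower means in KSR2-/- mice, and the list median was −0.19. Of the red cell precursor markers 3 had lower means as well, with a list median of −0.07. The median difference of the mast cell list was 1.39 in the higher-numbered series, where 2 of 6 passed limma after adjustment, and −0.86 within the lower-numbered pair. All 6 had a smaller effect in that pair at an unadjusted interaction p under 0.05, and 0 genes passed that test after adjustment. Adipocyte markers gave 1 higher and 2 lower of 7, with Lep higher and Adipoq and Slc2a4 lower. Dendritic cell markers gave 1 lower of 5, NK cell markers 0 of 5, mesothelial markers 0 of 5 and skeletal muscle markers 0 of 6. Mammary epithelium markers gave 3 lower of 8, and the list's mean was 5.37 in KSR2-/- 3 and 6.36 in WT 3, against 4.35 to 4.79 on the other arrays. Y-linked genes gave 0 of 5.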
